A study of Mus musculus with 32 samples.

Results

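Gene-rich droplets were chosen by their measured number of genes, as the barcodes of run HGYVNCCX2 with more than 6200 detected genes and at most 10% of their unique molecular identifiers (UMIs) from mitochondrial (*mt-*) genes. This rule found 2264 of 107853 barcodes (2.10%) in 16 pools, and these droplets held 9.36% of all UMIs. The study applies an upper limit of this size to its cells and states it in reads, so these droplets lie above it when it is read as a number of genes. They were compared with the 7861 droplets of the same pools that had 5000 to 6200 genes and passed the same mitochondrial limit, called comparison droplets here. Since both groups were cut by the number of detected genes, their numbers of genes and UMIs are given as a description without a test. Part of any difference between genes or between class shares can follow from the cut itself.

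The cells were BMSC-OBs, that is, bone marrow-derived stromal cells (BMSCs) grown out of femoral marrow and cultured in an osteogenic medium until they mineralized. The marrow came from 77 Diversity Outbred (DO) mice, an outbred population in which every animal has its own genotype, and no age, treatment or engineered allele was given for them in the sources used here. Cells of 4 or 5 mice were pooled after enzymatic release, and every pool gave 1 library of single-cell transcriptomes in droplets (scRNA-seq), which was sequenced in 2 runs. Every comparison here was made within pools, with the pool as the replicate, and the 2 runs of a pool are repeat sequencing of the same droplets and were not counted as replicates. Total counts were between 53990642 and 100777353 UMIs per pool.

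Marrow stromal cultures hold progenitors that can take an osteogenic or an adipogenic path. Late mesenchymal progenitors (LMPs) carry contractile and fibroblast-like genes, marrow adipogenic lineage progenitors (MALPs) secrete *Cxcl12* and start adipocyte genes, and osteoblasts switch on collagen I, bone sialoprotein and osteocalcin before some of them take on osteocyte genes such as *Mepe*, *Phex* and *Sost*. Cells that prepare to divide copy their genome and enlarge their RNA content, and a droplet that catches several cells also holds more RNA than a droplet with a single cell, so a gene-rich droplet can be a large cell or a doublet.

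Gene-rich droplets were found in every pool. Their number per pool was between 50 and 400, with a median of 97, which was 0.765% to 6.14% of the droplets of the pool that passed the mitochondrial limit. Their share stood highest in pools 7, 6 and 1, at 6.14%, 5.55% and 4.84%, and in these pools they held 19.7%, 19.5% and 21.4% of all UMIs. The median gene-rich droplet had 6639 genes and 50522 UMIs against 33207 UMIs in the comparison droplets, and the largest values were 9352 genes and 173213 UMIs. Another 6 droplets had more than 6200 genes but too many mitochondrial UMIs and were left out. In run HHFFMCCX2 all 2264 barcodes were present and 2255 of them (99.6%) again had more than 6200 genes. Across pools, 1521 barcode sequences occurred more than once, and 4 gene-rich droplets carried such a barcode. The 177 droplets just above the limit (6201 to 6250 genes) had a median of 42503 UMIs, and the 168 just below it (6150 to 6200 genes) had 41176.5. To set depth equal, 10000 UMIs were drawn at random from each droplet. At this depth a gene-rich droplet showed 3093 ± 129 genes against 2955 ± 157 in comparison droplets (mean and SD of the pool medians, n = 16), with the higher value above the limit in all 16 pools. This too is a description, since a droplet with more genes per UMI passes the cut more easily.

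Each droplet was then placed among droplets with fewer than 5000 genes of the same pools, at an equal depth of 5000 UMIs. It took the class of the cluster that held the largest number of its 20 nearest neighbors. Classes were named from marker lists: osteogenic-like, LMP-like, MALP-like and macrophage-like. An LMP-like cluster led by cell-cycle genes (*Birc5*, *Pclaf*, *Ube2c*, *Cdc20*) is given on its own as cycling LMP-like, since 9 of its 10 leading genes were S phase or mitosis genes. None of those 10 was an LMP marker. A cluster with macrophage genes and high collagen counts (25381 for collagen against 1625 for leukocyte genes in CPM, that is, counts scaled to the same library total) was left unnamed and is called the mixed cluster. Of the 2264 gene-rich droplets, 1136 were LMP-like, 498 cycling LMP-like, 381 osteogenic-like, 173 in the mixed cluster, 62 MALP-like and 4 macrophage-like, with 10 in other classes. At least 80% of the neighbors lay in the same cluster in 72.3% of gene-rich and 73.9% of comparison droplets.

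Gene-rich droplets were poorer in osteogenic-like cells and richer in progenitors and cycling progenitors than comparison droplets of the same pool. The cut can shape these shares, since the classes differed in their genes at equal depth. At 10000 UMIs comparison droplets showed 2745 ± 108 genes if osteogenic-like (8 pools), 3028 ± 145 if LMP-like (16 pools) and 3062 ± 83.0 if cycling LMP-like (7 pools). The part of the cut in the shares was not tested. Osteogenic-like droplets made up 17.9% ± 7.42 (SD, n = 16 pools) of the gene-rich droplets against 33.5% ± 12.6 of the comparison droplets. Their share was between 3.25% and 27.8% above the limit (median 19.6%) and between 4.41% and 48.2% below it (median 35.6%), and it was lower above the limit in 16 of 16 pools (exact sign-flip permutation test over pools, two-sided, adjusted p = 0.000214 over 7 classes). The LMP-like share was 50.8% ± 10.3 against 42.3% ± 9.37 and was higher above the limit in 13 of 16 pools (adjusted p = 0.00135, exact test). Cycling LMP-like droplets took 22.6% ± 10.6 against 12.3% ± 8.19, higher in 14 of 16 pools (adjusted p = 0.000641, exact test). MALP-like droplets took 2.29% ± 2.06 against 4.07% ± 3.19, lower in 12 of 16 pools (adjusted p = 0.0333, exact test). Macrophage-like droplets (0.0704% against 0.261%, adjusted p = 0.164), the mixed cluster (5.80% against 6.77%, adjusted p = 0.179) and the other classes (0.488% against 0.828%, adjusted p = 0.179) did not pass the exact test. At a clustering resolution of 1.0 no cluster was left unnamed as mixed, so the mixed share was 0 on both sides. Clusters with 1915 and 1398 CPM of leukocyte genes beside 9905 and 36905 CPM of collagen genes were there named LMP and osteogenic. Against comparison droplets of more than 5600 genes only, the LMP-like and MALP-like differences no longer passed (adjusted p = 0.108 and 0.420, exact test).

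**Figure D1:**
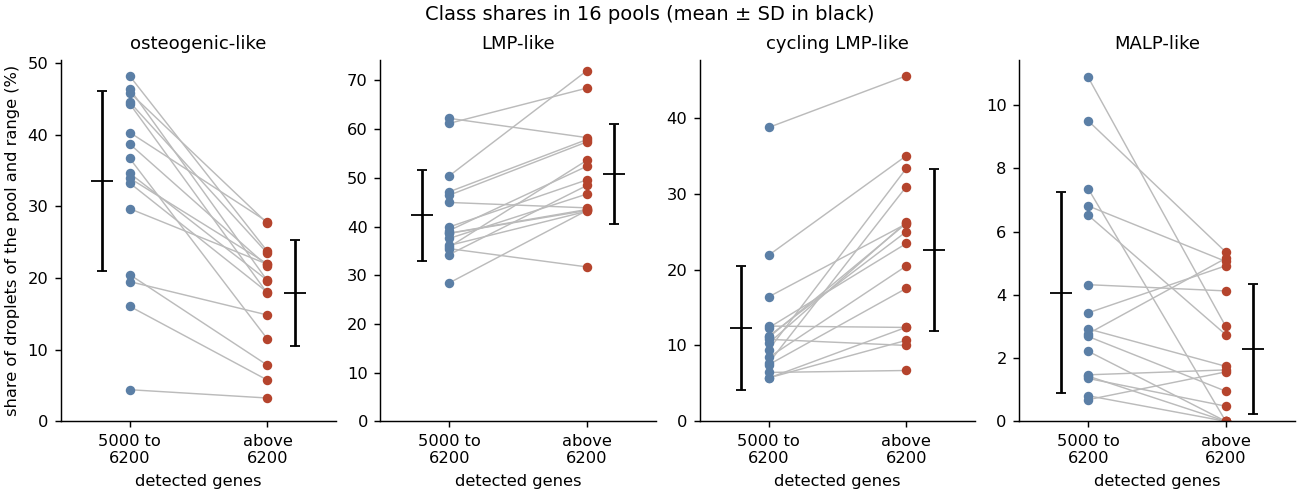
Share of droplets (%, vertical axis) assigned to 4 classes among comparison droplets (5000 to 6200 genes, blue) and gene-rich droplets (above 6200 genes, red), 1 point per pool, lines joining the same pool, mean ± SD of 16 pools in black. The osteogenic-like share falls in all 16 pools, from a mean of 33.5% to 17.9%, and the cycling LMP-like share rises in 14 of 16.

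Within the LMP-like class the gain lay in the cluster led by *Wisp2*, *Mgp* and *Timp3*, which took 36.6% ± 13.6 of gene-rich against 25.8% ± 12.7 of comparison droplets (higher in 14 of 16 pools, adjusted p = 0.000726 over 17 clusters, exact permutation test). The LMP-like cluster led by *Aspn*, *H19* and *Col3a1* took 14.3% ± 9.71 against 16.4% ± 9.18, a difference that did not pass (adjusted p = 0.198, exact test). Among osteogenic-like clusters, the *Sost* and *Mepe* cluster fell from 2.68% ± 1.88 to 0.588% ± 0.579 (lower in 14 of 16 pools, adjusted p = 0.000726, exact test), and 13 gene-rich droplets lay in it. The cluster led by *Ifitm5*, *Smpd3* and *Bglap2* held 289 of the 381 osteogenic-like gene-rich droplets. Read the other way, the share of a class that lay above the limit, among droplets with at least 5000 UMIs, was 14.8% for cycling LMP-like, 6.79% for LMP-like, 6.17% for the mixed cluster, 1.64% for osteogenic-like, 1.12% for MALP-like and 0.0807% for macrophage-like droplets.

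Finer ranges of the number of genes are given as a description. Osteogenic-like droplets made up 34.8% of the 4999 droplets with 5000 to 5600 genes, 27.3% of the 2862 with 5601 to 6200, 18.0% of the 1421 with 6201 to 6800, 15.5% of the 621 with 6801 to 7400 and 13.1% of the 222 with more. *Ibsp* fell with them, from a mean of 345 to 169 UMIs of 10000 per droplet between the lowest and the highest range. Cycling LMP-like droplets rose from 11.8% to 24.3% over the ranges up to 7400 genes and stood at 21.6% in the highest. The share of called doublets, scored without drawing to equal depth, rose from 14.0% to 35.6%, and that of the mixed cluster was 7.46%, 6.92%, 6.90%, 8.37% and 10.4% over the 5 ranges. These droplets are counted over all pools together, whereas the mean share of the mixed cluster within pools was 5.80% above and 6.77% below the limit, lower above it in 10 of 16 pools.

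**Figure D2:**
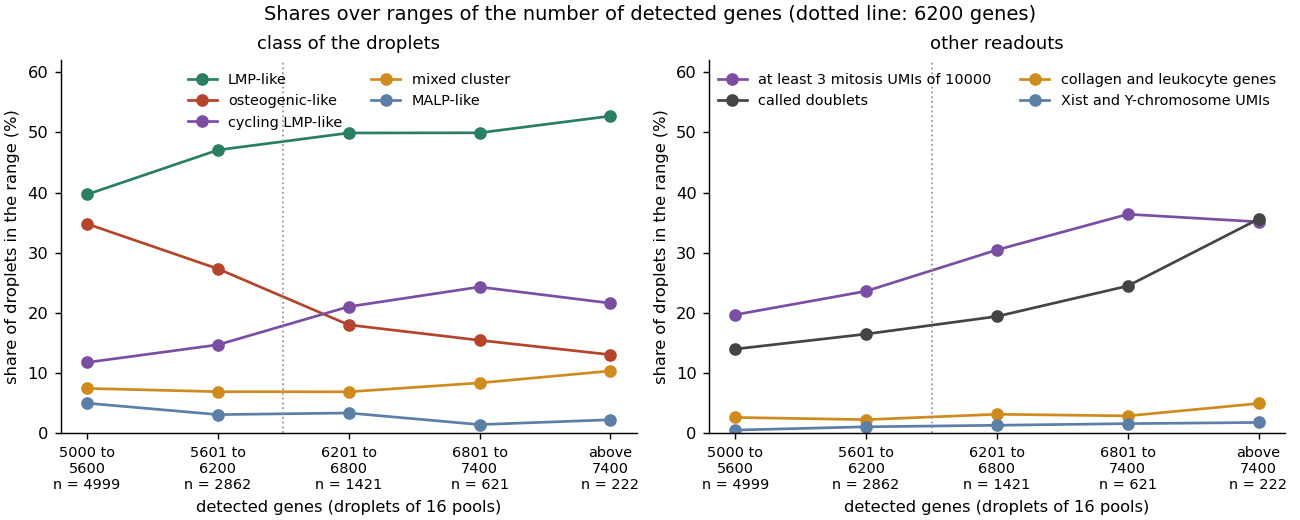
Share of droplets (%, vertical axis) by class (left) and by other readouts (right) in 5 ranges of the number of detected genes (horizontal axis, droplets of 16 pools together, n under each range, no error shown), with the limit of 6200 genes as a dotted line. Osteogenic-like droplets fall from 34.8% to 13.1% while called doublets rise from 14.0% to 35.6%.

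To follow single genes, UMIs were summed per pool over the gene-rich and over the comparison droplets. The sums were compared by the quasi-likelihood test of edgeR, in which the pool was a block. Fold changes are on the log2 scale with their standard error (SE), and levels are CPM of the summed pool. These sums mix the makeup of the droplets with the level within each class, so each result over all classes can be set against the results within classes further on. *Ibsp*, which codes for bone sialoprotein (chromosome 5, 104299171 to 104311469, plus strand, GRCm38), was at 8800 CPM in the lowest gene-rich pool, 20687 in the median pool and 28597 in the highest, against 12815, 38995 and 56623 in comparison droplets. Both ranges overlap between pools, but *Ibsp* was lower above the limit in 16 of 16 pools, with a change of -0.91 ± 0.06 (adjusted p = 9.5e-10).

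*Mki67*, a gene of proliferating cells (chromosome 7, 135689784 to 135716361, minus strand), was at 31.5, 68.6 and 115 CPM in the lowest, median and highest gene-rich pool against 18.8, 27.3 and 85.5 CPM in comparison droplets. It was higher in 16 of 16 pools, by 0.99 ± 0.11 (adjusted p = 4.7e-07). *Cxcl12*, a chemokine of marrow stroma (chromosome 6, 117168535 to 117181367, plus strand), was at 64.3, 509 and 1047 CPM against 246, 588 and 1625 CPM and was lower in 13 of 16 pools, by -0.58 ± 0.12 (adjusted p = 0.000594).

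*Tagln*, an actin-binding gene of contractile cells (chromosome 9, 45929619 to 45936058, minus strand), was at 320, 755 and 1296 CPM against 340, 634 and 1268 CPM. Its change of 0.18 ± 0.08 did not pass (adjusted p = 0.0853, higher in 12 of 16 pools). *Tyrobp*, a myeloid signalling adaptor (chromosome 7, 30413760 to 30417585, plus strand), was at 9.89, 30.7 and 119 CPM against 14.0, 39.2 and 105 CPM, and its change of -0.17 ± 0.08 did not pass (adjusted p = 0.104, lower in 11 of 16 pools).

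**Figure D3:**
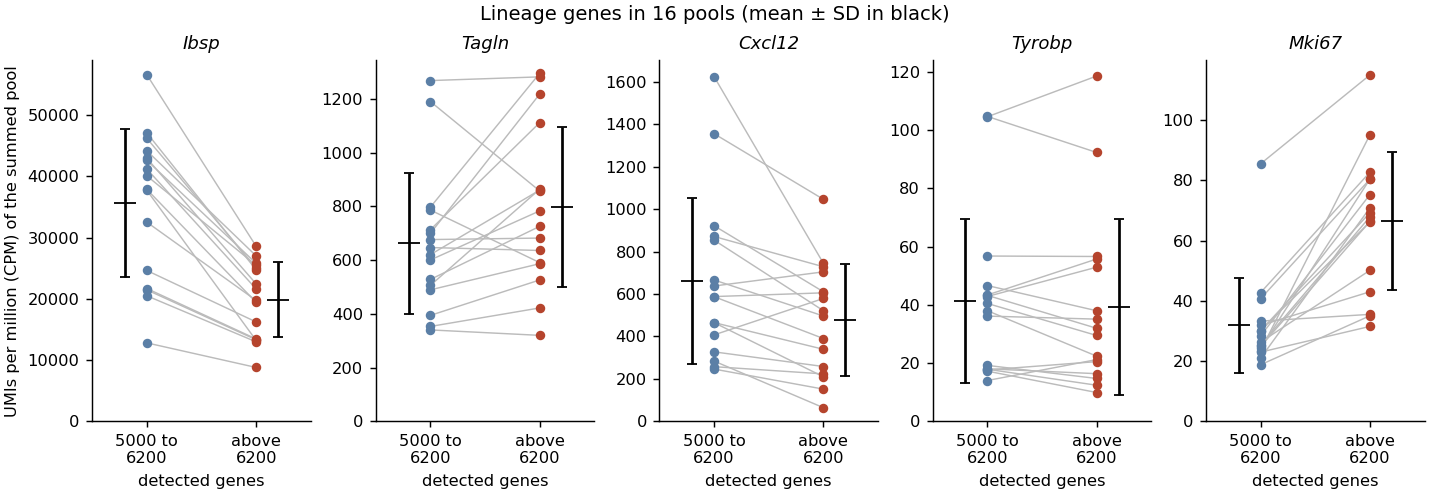
CPM (vertical axis, from 0, a scale of its own for each gene) of *Ibsp*, *Tagln*, *Cxcl12*, *Tyrobp* and *Mki67* in the summed comparison (blue) and gene-rich (red) droplets, 1 point per pool, lines joining the same pool, mean ± SD of 16 pools in black. *Ibsp* falls and *Mki67* rises in every pool, and *Tyrobp* and *Tagln* lines run both ways.

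Over all classes, 5563 of 12441 genes tested (44.7%) passed an adjusted p of 0.05, 2878 higher (23.1% of the genes tested) and 2685 lower (21.6%) in gene-rich droplets. The split depends on the scaling, since with library totals in place of the TMM factors 4806 genes were higher and 1555 lower. The median over all genes tested was 0.00 log2 units, and 0.09 with library totals. The genes with the highest fold change by the rule for named genes were mostly genes of mitosis. *Cenpf*, which codes for a kinetochore protein, was at 79.5 ± 33.0 against 30.3 ± 12.3 CPM (SD, n = 16), a change of 1.28 ± 0.13 (adjusted p = 2.06e-07, higher in 15 of 16 pools). It was followed by the spindle assembly factor *Tpx2* (1.13 ± 0.12), the histone gene *Hist1h2ap* (1.06 ± 0.17), the topoisomerase *Top2a* (1.00 ± 0.12), *Mki67*, the midzone protein *Prc1* (0.97 ± 0.11), the chromatin protein *Hmga2* (0.89 ± 0.09) and the condensin subunit *Smc2* (0.87 ± 0.11). Histone genes of this cluster are near copies of each other, so the count of *Hist1h2ap* alone is uncertain.

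The cell-cycle lists rose as a whole. All 20 of 20 mitosis genes were higher, with a median of 0.96, and the kinesin *Kif11* (1.23 ± 0.14) and the kinetochore motor *Cenpe* (1.11 ± 0.11) were higher in 16 of 16 pools. All 20 of 20 S phase genes were higher too, with a median of 0.55, among them the replication checkpoint adaptor *Clspn* (0.88 ± 0.12), the helicase *Hells* (0.77 ± 0.13) and *Pclaf*, a partner of the replication clamp (0.76 ± 0.13). Of 12 CDK inhibitors and p53 targets, 5 were higher and 3 lower. *Cdkn1c* fell from 8.91 to 5.29 CPM (-0.87 ± 0.14), while the cyclin *Ccng1* was higher in 16 of 16 pools (0.25 ± 0.03). Counted by droplets at equal depth, 31.4% ± 12.2 of gene-rich droplets had at least 3 mitosis UMIs of 10000 against 20.3% ± 12.1 of comparison droplets (737 and 1661 droplets). This share was higher in 16 of 16 pools (exact permutation test, p = 3.05e-05, the smallest that 16 pools allow). In reference droplets of the *Sost* cluster, where cells should not divide, it was 1.20% (95% exact binomial interval 0.887% to 1.58%, counting error only; median depth 18617 UMIs before drawing).

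Genes that make ribosomes moved the same way, with 15 of 16 ribosome biogenesis genes higher (median 0.32). The helper proteins of ribosomal RNA processing *Wdr12* (0.44 ± 0.04), *Dkc1* (0.43 ± 0.04) and *Nop56* (0.41 ± 0.05) were higher in 16 of 16 pools, and *Utp20* (0.49 ± 0.06) in 15. Of 16 genes of RNA polymerase II and splicing, 10 were higher and 1 lower, with small changes such as that of the splicing factor *Sf3b2* (0.28 ± 0.03). Of 14 genes of integrins and focal adhesions, 8 were higher and 1 lower, led by *Zyx* (0.31 ± 0.05).

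Genes of mineralizing bone matrix were lower. All 7 tested genes of the SIBLING phosphoproteins and osteocalcins fell, with a median of -1.12. *Mepe*, a phosphoprotein of late osteoblasts and osteocytes, was at 35.8 ± 33.9 against 132 ± 120 CPM, a change of -1.85 ± 0.21 (adjusted p = 7.35e-07, lower in 15 of 16 pools), and *Dmp1* was lower in 16 of 16 pools (-1.14 ± 0.09). *Bglap* (-1.19 ± 0.11) and *Bglap2* (-1.12 ± 0.12) code for osteocalcin and are near-identical copies, so reads can be split between them. The lowest fold changes by the rule also held *Phex*, a peptidase that limits FGF23 (-1.31 ± 0.17), the potassium channel *Kcnk1* (-1.21 ± 0.09), the carbonic anhydrase *Car12* (-1.12 ± 0.12) and the matrix protein *Thbs4* (-1.09 ± 0.15). Of 10 fibrillar collagen genes, 7 were lower and 1 higher (median -0.63). *Col1a1* was at 9696 ± 3009 against 15765 ± 5380 CPM (-0.76 ± 0.06), and *Col11a1* (-0.98 ± 0.07) and *Col11a2* (-0.99 ± 0.08) were lower in 16 of 16 pools. The secretory pathway followed, with 15 of 16 genes lower (median -0.37), led by the collagen-modifying enzymes *P4ha1* (-0.74 ± 0.06), *Plod2* (-0.74 ± 0.06) and *P4ha2* (-0.64 ± 0.05).

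Genes of the hypoxia response and of glycolysis were lower as well. All 12 hypoxia genes fell (median -0.65), including the oxygen sensor *Egln3* (-0.69 ± 0.09), and all 13 tested glycolysis genes fell (median -0.28), including the glucose transporter *Slc2a1* (-0.60 ± 0.08), *Pgk1* (-0.40 ± 0.05) and *Ldha* (-0.37 ± 0.04). *P4ha1* is in both the hypoxia and the secretory list. Of 12 immediate-early genes 11 were lower (median -0.31), led by *Ier3* (-0.54 ± 0.06). Of the 7 tested nuclear long noncoding RNAs 4 were lower, among them *Neat1* (-0.60 ± 0.06) and *Malat1* (-0.36 ± 0.03), both in 16 of 16 pools. Lysosome genes were lower in 10 of 16 cases (median -0.12), but with library totals 5 were lower and 2 higher. The nuclear-encoded respiratory chain had 4 of 18 genes higher and 5 lower, and with library totals 13 higher and 2 lower. Of the 14 cholesterol synthesis genes 2 were lower, of the 12 Notch and Wnt targets 4 were lower and 1 higher, of the 11 tested contractile genes 2 were higher, and of the 11 tested interferon-stimulated genes 1 was lower. With library totals 1 of the Notch and Wnt targets was lower and 1 higher, 5 contractile genes were higher, and of the interferon-stimulated genes 2 were higher and 1 lower. These counts, and those of the lysosome and respiratory chain lists with library totals, stand beside 4806 higher and 1555 lower of all 12441 genes tested.

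**Figure D4:**
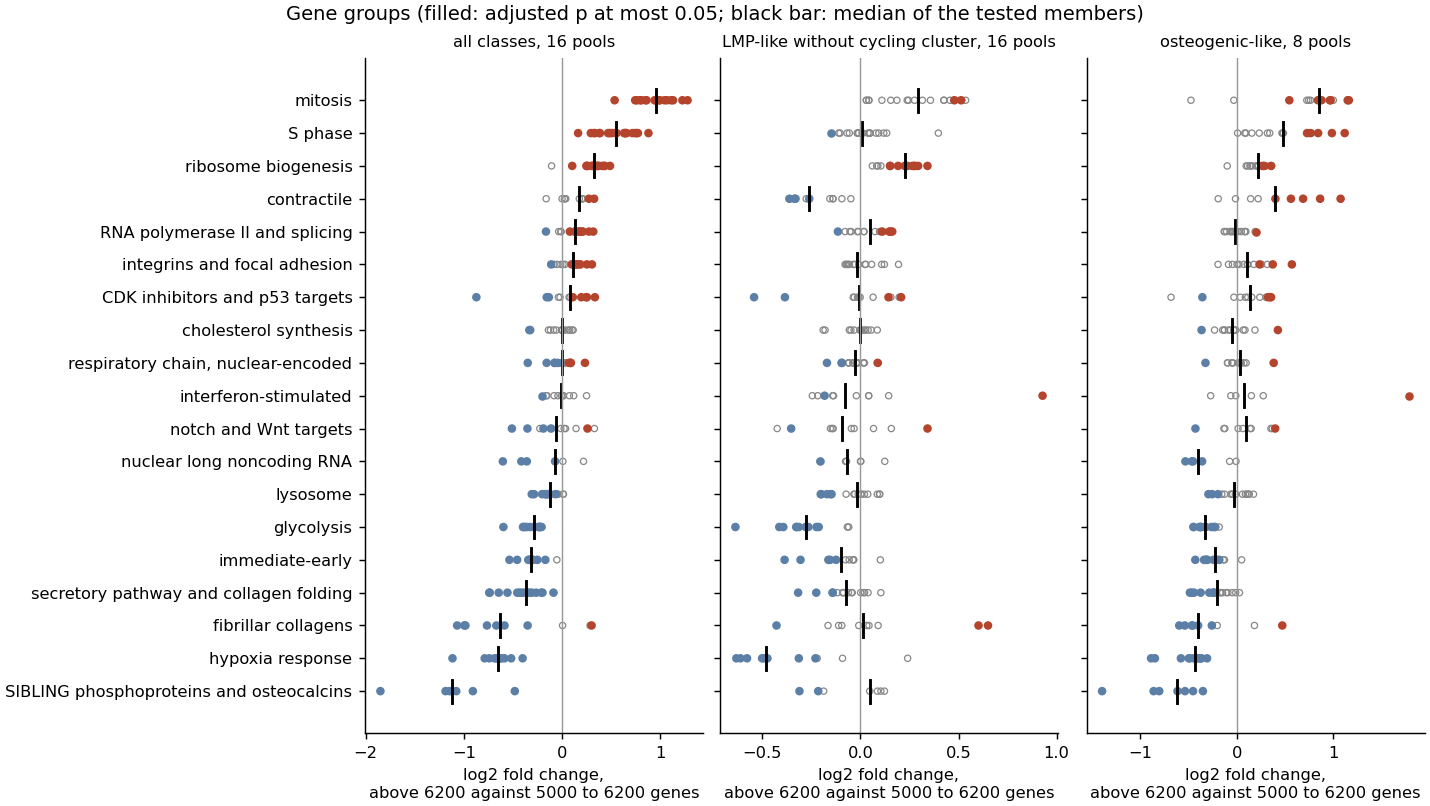
Log2 fold change (horizontal axis, gene-rich against comparison droplets, a scale of its own in each panel) of every tested member of 19 gene groups, over all classes (16 pools), in LMP-like droplets without the cycling cluster (16 pools) and in osteogenic-like droplets (8 pools). Filled points passed an adjusted p of 0.05 and black bars are medians: mitosis stands at 0.96, 0.30 and 0.85, and glycolysis at -0.28, -0.28 and -0.33.

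Within the LMP-like class, cycling cluster included, 2827 of 11680 genes (24.2%) differed, and mitosis genes again led, with *Cenpf* at 0.90 ± 0.12 and *Tpx2* at 0.79 ± 0.11. Without the cycling cluster 1795 of 11224 genes (16.0%) differed, 780 higher (6.95%) and 1015 lower (9.04%), and of the mitosis list 2 of 20 genes were higher, *Mki67* (0.48 ± 0.13) and *Tpx2* (0.51 ± 0.12), with a median of 0.30 over the list. Of the S phase list 1 of 20 was lower (*Slbp*) and none higher (median 0.01). The cluster led by *Wisp2*, which has *Ccnd1* and *Timp3* among its 10 leading genes, held 77.8% of these LMP-like droplets above the limit and 64.3% below it, and the other cluster, with *Adm*, *Acta2* and *Col3a1* among them, held 22.2% and 35.7%. A fit of the *Wisp2* cluster alone, in 14 pools and chosen after seeing the data, is therefore set beside the class, and in it 995 of 10281 genes differed, 5.19% of the genes higher and 4.48% lower. The G1 cyclins *Ccnd1* and *Ccnd2* were higher in 16 of 16 pools. *Ccnd1* was at 504, 1117 and 1585 CPM in the lowest, median and highest gene-rich pool against 392, 846 and 1253 CPM, a change of 0.41 ± 0.04 (adjusted p = 5.95e-07), and *Ccnd2* changed by 0.33 ± 0.03. *Hmga2*, a chromatin protein of fetal and growing tissue, changed by 0.62 ± 0.08, the matrix metalloproteinase inhibitor *Timp3* by 0.43 ± 0.06 and the cytoskeletal linker *Plec* by 0.40 ± 0.06. All 5 were also higher in the *Wisp2* cluster alone, *Ccnd1* and *Ccnd2* by 0.34, *Hmga2* by 0.50, *Timp3* by 0.47 and *Plec* by 0.43. At a clustering resolution of 1.0, *Wisp2* was a leading gene of a cluster with *Mmp13* and of another with *Hmga2*, *Timp3* and *Ccnd1*. A shift of makeup within the *Wisp2* cluster was not tested. Ribosome biogenesis genes were higher in 11 of 16 cases (median 0.23), in 6 in the *Wisp2* cluster (median 0.14), and in 2 among all LMP-like droplets without mitosis UMIs (median 0.15), where 1.81% of the genes tested were higher and 3.31% lower.

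As lists, 7 of 9 LMP markers were lower and 1, *Timp3*, was higher (median -0.34), and 6 of 9 MALP markers were lower (median -0.53). In the *Wisp2* cluster 4 LMP markers (median -0.27) and 5 MALP markers (median -0.54) were lower. Lower in these progenitors were AY036118 (-0.96 ± 0.08), the vasodilator peptide gene *Adm* (-0.87 ± 0.12), the collagenase *Mmp13* (-0.85 ± 0.09), the cytochrome oxidase isoform *Cox4i2* (-0.80 ± 0.08), the matrix protein *Omd* (-0.66 ± 0.08) and *Slc2a1* (-0.64 ± 0.09). *Mmp13* was at 66.5, 252 and 946 CPM in the lowest, median and highest gene-rich pool against 212, 481 and 1539 CPM and was lower in 16 of 16 pools. Hypoxia genes were lower in 8 of 12 cases (median -0.48), with *Bnip3*, a mitophagy receptor, at -0.61 ± 0.08 and *Ankrd37* at -0.63 ± 0.08. Glycolysis genes were lower in 11 of 13 cases (median -0.28). The hypoxia and glycolysis calls were mostly lost in the *Wisp2* cluster alone, where none of 11 hypoxia genes was lower and 2 were higher (median 0.01) and 2 of 13 glycolysis genes were lower and 1 higher (median 0.01). *Adm* (-0.19), *Bnip3* (-0.15), *Ankrd37* (-0.020) and *Slc2a1* (-0.0081, higher in 7 and lower in 7 pools) did not pass there, while *Mmp13* (-1.17), *Omd* (-0.70) and *Cox4i2* (-0.37) were lower. Of 11 contractile genes 4 were lower (median -0.26), namely *Tpm2* (-0.36 ± 0.05), *Acta2* (-0.34 ± 0.09), *Myl9* (-0.33 ± 0.06) and *Tagln* (-0.26 ± 0.07). In the *Wisp2* cluster 3 were lower (median -0.24), and *Acta2* (-0.27) and *Tagln* (-0.26) did not pass. Fibrillar collagens did not fall here as a list, with a median of 0.01, and *Col11a2* (0.65 ± 0.10) and *Col24a1* (0.60 ± 0.17) were higher while *Col3a1* was lower (-0.43 ± 0.07). Without called doublets, in 15 pools, where 8.24% of the genes tested were higher and 9.24% lower, *Col11a2* stood at 0.33 and no longer passed (adjusted p = 0.189), *Col24a1* was too low to be tested, 4 of 9 fibrillar collagens were lower (median -0.17) and 2 of 11 contractile genes were lower, with *Acta2* (-0.24) and *Tagln* (-0.15) not among them. In the *Wisp2* cluster 3 of 9 fibrillar collagens were higher and none lower (median 0.21), *Col11a2* stood at 0.82 (adjusted p = 0.000249), and *Col3a1* stood at -0.14 and did not pass. Among the 10 macrophage markers 3 were higher (median 0.36), and 1 of 8 without called doublets. In the cycling cluster alone, 41 of 9699 genes (0.423%) differed, in 7 pools, 14 higher (0.144%) and 27 lower (0.278%). In the mixed cluster 96 of 9667 genes (0.993%) differed, in 4 pools, 41 higher (0.424%) and 55 lower (0.569%).

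The osteogenic-like class could be compared in the 8 pools with at least 20 such droplets on both sides of the limit (pools 1, 5, 6, 7, 9, 13, 14 and 18), and 1068 of 10510 genes (10.2%) differed, 447 higher (4.25%) and 621 lower (5.91%). Scaling mattered most here, since library totals gave 1648 higher and 292 lower with the median of all genes at 0.12. All 7 tested SIBLING and osteocalcin genes fell (median -0.61). *Mepe* was at 6.43, 118 and 379 CPM in the lowest, median and highest gene-rich pool against 14.0, 332 and 717 CPM, and was lower in 8 of 8 pools (-1.40 ± 0.17, adjusted p = 0.000107). *Sost*, the gene of the osteocyte-made Wnt inhibitor sclerostin, changed by -1.01 ± 0.16 (178 CPM in gene-rich droplets of pool 6 and at most 64.2 in the other pools), *Bglap* by -0.80 ± 0.12 and *Bglap3* by -0.86 ± 0.11. *Ibsp* changed by -0.54 ± 0.07. Of 9 tested fibrillar collagens 6 were lower and 1, *Col3a1*, was higher (0.47 ± 0.08). All 12 hypoxia genes were lower (median -0.43), as were 11 of 13 glycolysis genes (median -0.33) and 8 of 12 immediate-early genes (median -0.23). With library totals, where 2.78% of the genes tested were lower, 6 SIBLING and osteocalcin, 10 hypoxia, 6 glycolysis and 3 immediate-early genes were lower.

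The makeup of the class also differed between both sides. The cluster led by *Ifitm5* held 75.9% of the osteogenic-like droplets above the limit and 68.3% below it, the cluster with *Car12*, *Egln3* and *P4ha2* among its leading genes 7.87% and 18.4%, and the *Sost* and *Mepe* cluster 3.41% and 8.17%. The cluster led by *Cercam*, *Slpi* and *Fmod* held 12.9% and 5.12%. Its mean marker score was 1.065 for osteogenic and 0.96 for LMP markers. It had 291 CPM of leukocyte genes against 36 to 46 in the other osteogenic-like clusters. In the *Ifitm5* cluster alone, which could be fitted in 4 pools and was chosen after seeing the data, 347 of 9978 genes differed, 1.48% of the genes higher and 1.99% lower. There 6 of 7 SIBLING and osteocalcin genes were still lower (median -1.09), among them *Mepe* (-1.10) and *Bglap* (-1.20), and so was *Ibsp* (-0.73). *Sost* stood at -0.73, lower in 4 of 4 pools, and did not pass (adjusted p = 0.183). In the same fit 2 of 12 hypoxia genes (median -0.39), 2 of 13 glycolysis genes (median -0.27) and 2 of 12 immediate-early genes were lower. Of the lists described next, 5 of 8 LMP markers (median 0.54), 6 of 9 mitosis genes (median 1.39), 1 of 9 macrophage markers, 1 of 6 pan-leukocyte genes and no MALP marker were higher in that cluster, and *Cxcl12* stood at -0.28. At a clustering resolution of 1.0, *Ifitm5* was a leading gene of a cluster with *Bglap* and of another led by *Mamdc2*. A shift of makeup within the *Ifitm5* cluster was not tested.

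The genes that rose in osteogenic-like droplets included markers of other classes. *Timp3*, an LMP marker, was at 128, 467 and 637 CPM in the lowest, median and highest gene-rich pool against 55.1, 133 and 359 CPM (1.23 ± 0.15, 8 of 8 pools). *Tagln* was at 84.2, 110 and 352 CPM against 31.8, 53.9 and 120 CPM (1.08 ± 0.15), with the 352 CPM in pool 5 and at most 176 in the others, and *Cxcl12* at 122, 264 and 687 CPM against 57.9, 143 and 317 CPM (0.97 ± 0.13), each in 8 of 8 pools. *Lpl*, the lipoprotein lipase gene and a MALP marker, changed by 1.30 ± 0.24, the protease gene *Prss23* by 1.07 ± 0.14, *S100a4* by 0.79 ± 0.10 and *Fstl1* by 0.74 ± 0.10. *Dynap* had the highest fold change (2.71 ± 0.40), with 145 CPM in comparison droplets of pool 18 and at most 11.3 in the other pools. Of 9 tested contractile genes 5 were higher (median 0.40). *Mki67* (1.15 ± 0.18) and *Tyrobp* (0.99 ± 0.26, adjusted p = 0.0186) were also higher, from 3.89 to 9.63 and from 9.83 to 21.7 CPM. As whole lists, 6 of 8 tested LMP markers (median 0.63), 7 of 9 MALP markers (median 0.88), 3 of 10 macrophage markers (median 0.60), 3 of 7 tested pan-leukocyte genes (median 0.72) and 7 of 16 tested mitosis genes (median 0.85) were higher, and none lower. With library totals, where 15.7% of the genes tested were higher, these counts were 8 LMP, 8 MALP, 7 macrophage, 6 pan-leukocyte and 13 mitosis genes.

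Called doublets were more frequent in this class, with 31.8% of the 381 gene-rich against 14.5% of the 2521 comparison droplets. Without them, and with at least 10 droplets per pool and side in place of 20 so that 10 pools could be fitted, 1066 of 9973 genes differed, 4.11% of the genes higher and 6.58% lower. In that fit, which changes 2 choices, none of the 9 MALP markers (median -0.03), of the 8 tested macrophage markers (median -0.09), of the 4 tested pan-leukocyte genes or of the 9 tested mitosis genes passed, and *Cxcl12* stood at -0.03 and *Tyrobp* at -0.35. LMP markers were still higher in 4 of 8 cases (median 0.54), and the 7 SIBLING and osteocalcin genes (median -0.93), the 12 hypoxia genes (median -0.64) and 12 of 13 glycolysis genes (median -0.53) were still lower. This fit was chosen after seeing the data. Keeping the doublets at the same minimum of 10 droplets gave 1616 genes of 10410 in 12 pools, 7.03% of the genes higher and 8.49% lower. With the doublets kept, 5 of 9 MALP markers (median 0.59), none of 9 tested macrophage markers (median 0.46), 2 of 7 pan-leukocyte genes (median 0.54), 4 of 13 tested mitosis genes (median 0.50) and all 8 tested LMP markers (median 0.68) were higher. Without the doublets at the minimum of 20 droplets, in 3 pools, only 0.761% of the 10650 genes tested were higher and 1.55% lower. No MALP (median -0.08), macrophage (median 0.11), pan-leukocyte (median -0.15) or mitosis gene (median 0.42) passed there, which is close to that share of all genes, 5 of 8 LMP markers were higher, and 6 of 7 SIBLING and osteocalcin genes, 7 of 12 hypoxia genes and 1 of 13 glycolysis genes (median -0.39) were lower.

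The change between gene-rich and comparison droplets was then tested for a difference between the osteogenic-like and the LMP-like class without the cycling cluster, over the 8 pools that held both. It differed for 425 of 11753 genes (3.62%, edgeR's quasi-likelihood test of the interaction). Of these, 171 were higher above the limit in osteogenic-like and lower in LMP-like droplets, 157 the reverse, 54 higher in both and 43 lower in both. Since these genes were picked for a difference, opposite signs are in part given by the choice. *Col22a1*, a collagen of tissue junctions, changed by -0.69 in osteogenic-like and by 0.86 in LMP-like droplets (adjusted p = 1.54e-06), *Col11a1* by -0.62 and 0.26, and *Col1a1* by -0.48 and 0.15. The other way, *Kitl*, the stem cell factor gene, changed by 0.94 and -0.61 (adjusted p = 4.1e-05), *Cxcl12* by 0.95 and -0.27 (adjusted p = 0.000131) and *Igfbp4* by 0.68 and -0.46. Of the 18 LMP and MALP markers, 16 had a significantly more positive change in osteogenic-like droplets (median changes 0.69 and -0.19), and of the 12 osteogenic markers 5 had a more negative one (median changes -0.39 and -0.09). The test was repeated without called doublets and with the minimum lowered to 10 droplets per pool and side, in 10 pools. Since the minimum and the set of pools changed as well, the part of the doublets alone in the lower count was not tested. In this fit 173 of 11433 genes passed (1.51%). It shares droplets with the first fit, so a like sign is in part given. Of the 424 genes tested again, 420 had the same sign, and 134 of them passed. *Col22a1*, *Col11a1*, *Col1a1* and *Kitl* were among them, and *Cxcl12* (adjusted p = 0.114) and *Igfbp4* (adjusted p = 0.189) were not. Of the 18 LMP and MALP markers 4 then passed with a more positive change (*Col3a1*, *Esm1*, *Kitl* and *Myl9*, median changes of the 18 at 0.27 and -0.27), and of the 12 osteogenic markers 2 with a more negative one (*Bglap* and *Mepe*) and 1 with a more positive one (*Smpd3*). In that fit *Kitl* stood at 0.12 and -0.80, the osteogenic-like values of *Cxcl12* and *Igfbp4* were -0.06 and -0.11, and the LMP-like values were 0.37 for *Col22a1* and -0.11 for both *Col1a1* and *Col11a1*. The test was not repeated within single clusters of the classes. These 6 genes were chosen after their values were seen.

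**Figure D5:**
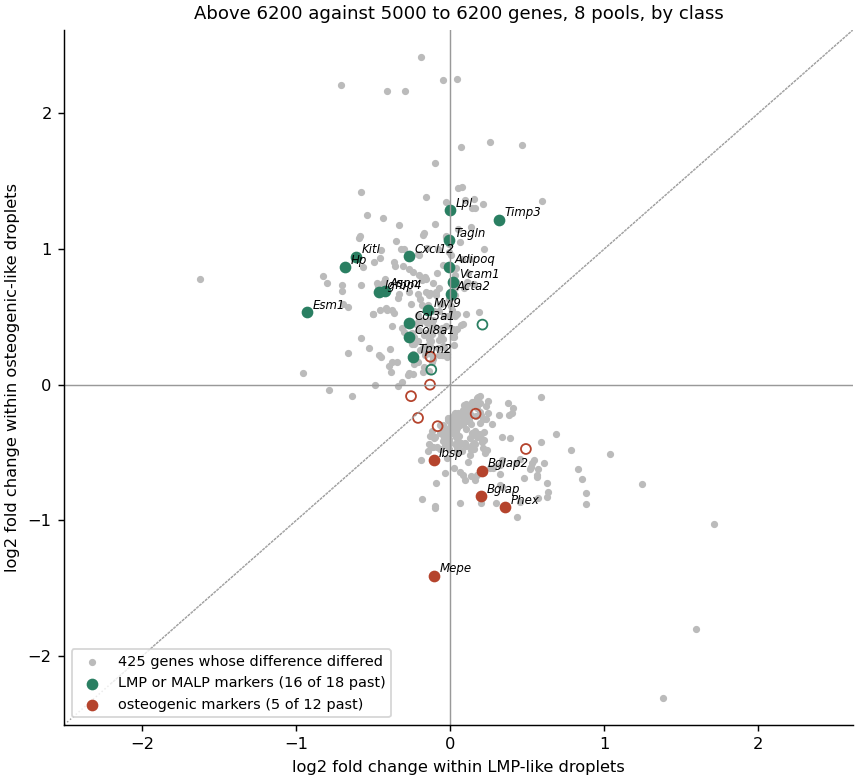
Log2 fold change of gene-rich against comparison droplets in LMP-like (horizontal axis) and osteogenic-like droplets (vertical axis) of 8 pools, for the 425 genes whose change differed between the classes (grey), LMP and MALP markers (green) and osteogenic markers (red), open where the difference did not pass. All green points lie above the dotted line of equal change (16 of 18 past the test, and 4 of 18 without called doublets and with at least 10 droplets per pool and side), and the 5 of 12 red points past the test lie below it.

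A droplet that caught 2 cells is the alternative reading of a gene-rich droplet, and 4 readouts of it were taken, all but the doublet score at equal depth. A droplet counted as mixed where, of 10000 UMIs, both the 10 collagen matrix genes and the 10 pan-leukocyte genes reached 25% of the median of the reference cells of their side (51 and 15 UMIs). This held for 74 gene-rich and 197 comparison droplets, 2.87% ± 3.20 and 2.42% ± 1.76 of the pool (SD, n = 16), higher above the limit in 8 pools and lower in 8 (exact permutation test, p = 0.441). With 10% of the medians the shares were 12.4% and 9.73% (p = 0.00473, exact test), and with 40% they were 0.407% and 0.566% (p = 0.362, exact test). Macrophage-like reference droplets had a median of 7412 UMIs, so such a cell adds a smaller part of the UMIs to a deeper droplet. The same level is therefore harder to reach in gene-rich droplets, which limits these tests. In reference droplets with fewer genes the share was 0.104% in the osteogenic-like, 0.163% in the LMP-like and 0.223% in the macrophage-like class, and 30.5% in the mixed cluster. Of the 74 mixed gene-rich droplets, 55 lay in the mixed cluster, and the rest are given by class as a description without a test. Mixed were 5 of 381 osteogenic-like gene-rich droplets (1.31%) against 3 of 2521 comparison ones (0.119%), 6 of 498 cycling LMP-like ones (1.20%) against 5 of 1010 (0.495%), and 5 of 1136 LMP-like ones (0.440%) against 11 of 3331 (0.330%).

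*Xist* and Y-chromosome genes can stand together in a droplet that caught cells of both sexes or that took up free RNA, and the part of either was not tested. At least 2 UMIs of *Xist* and 2 of Y-chromosome genes were found together in 33 gene-rich and 58 comparison droplets, 1.37% ± 1.68 against 0.744% ± 0.795 of the pool, higher in 7 pools and lower in 3 (exact permutation test, p = 0.03125, adjusted p = 0.0469 over 3 shares). In reference droplets with fewer than 5000 genes, drawn to the same depth, both were found in 112 of 35056 (0.319%, 95% exact binomial interval 0.263% to 0.384%, counting error only; median depth 17805 UMIs before drawing), with 0.281% in the osteogenic-like and 0.196% in the LMP-like class. The shares depend on the count asked for, with 6.11% against 3.59% at 1 UMI of each and 10.6% against 4.35% without drawing to equal depth (both p = 0.000977, exact test). Doublets between cells of the same sex cannot be seen this way, nor leukocyte-free doublets by the first readout. At 2 UMIs of each the share was 0 on both sides in pools 1, 2, 3, 4, 17 and 18, and these pools enter the means. Within classes, the share was 2.89% of osteogenic-like gene-rich droplets (11 of 381) against 1.07% of comparison droplets, and 0.792% against 0.510% of LMP-like ones.

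A doublet score from simulated pairs of the pool's own droplets called 507 gene-rich and 1172 comparison droplets, 20.4% ± 7.39 against 14.8% ± 3.63 of the pool, higher in 13 of 16 pools (exact permutation test, p = 0.00296). This score was not drawn to equal depth, and a simulated pair carried the summed UMIs of both its droplets, so depth can enter the call. The score called 85.0% of the gene-rich droplets of the mixed cluster, 14.7% of the LMP-like and 12.4% of the cycling LMP-like ones, against 85.1%, 7.27% and 5.74% of the comparison droplets. Osteogenic and LMP markers, each at 25% or more of the median of their own reference class, stood together in 37.5% of the osteogenic-like gene-rich droplets against 20.5% of the comparison ones, and osteogenic with MALP markers in 3.41% against 1.67%. Over all classes the first pair stood together in 20.9% of gene-rich against 19.2% of comparison droplets (mean of pools, higher in 9 of 16), the second in 0.838% against 0.738% (26 and 59 droplets, higher in 8), and LMP with MALP markers in 4.24% against 6.55% (higher in 1 of 16). In reference droplets with fewer genes the 3 pairs stood together in 9.52%, 0.330% and 10.3%. Of the gene-rich droplets with these pairs, 44.5%, 88.5% and 35.4% were called doublets. What part of the pairs came from doublets was not tested. These pairs were chosen after seeing the gene results and were not tested. At equal depth the pan-leukocyte genes summed to 0.836 to 5.38 UMIs of 10000 over gene-rich and 1.09 to 5.14 over comparison pools, and the 10 macrophage markers to 0.426 to 6.65 and 0.792 to 6.65. The part of doublets in the gene-rich droplets as a whole was not tested. Leaving out the called doublets left 5569 of 12161 genes different over all classes, with 5519 of the 5520 genes called before and tested again keeping their sign, and leaving out the mixed and the *Xist* and Y-chromosome droplets left 5509 of 12383. Both fits share most of their droplets with the full fit, so a like sign is in large part given.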

How the data were processed

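Cells of 16 pools of DO mouse BMSC-OBs were measured by 10x Genomics 3' scRNA-seq. Reads were mapped to GRCm38/mm10 by the authors, whose processing notes name Cell Ranger 5.0.0, and the deposited matrices hold raw UMI counts per gene and barcode, before the study's filters and doublet removal. The annotation release was not given in the sources used here. Coordinates are from GENCODE M21 (GRCm38), which held 30934 of the 31053 gene identifiers.

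Run HGYVNCCX2 was used. Reference droplets (fewer than 5000 genes, at least 5000 UMIs) were thinned to 5000 UMIs and clustered (2000 variable genes without cell-cycle, sex, mitochondrial and ribosomal protein genes, 20 principal components, Leiden resolution 0.5, leidenalg 0.10.2). Clusters were named from their mean z over 105 markers of 14 classes. Between classes with close scores, the number of markers among the leading genes decided. The name was therefore not always the class with the highest mean z. A cluster stayed unnamed if too few markers were detected or if collagen genes stood against a leukocyte name. It also stayed unnamed if its leading genes held more markers of another class. Doublets were scored at full depth, after scaling to the same total, by the share of simulated doublets (2 per droplet, 30 principal components) among nearest neighbors, and 0.8% per 1000 droplets were called and kept.

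Counts summed per pool (at least 20 droplets on each side) were compared with edgeR 4.0.16 under R 4.3.3 (quasi-likelihood test with filterByExpr, TMM factors, pool as block, Benjamini-Hochberg adjusted p of 0.05), and DESeq2 1.42.0 was an alternative. SEs are the log2 fold change divided by the root of the F statistic. The test was checked on simulated data. Shares were compared by exact two-sided sign-flip permutation tests over pools. The pools pair both sides, since these are droplets of the same library: deviations from the group means correlated at 0.437 or more within a pool over all classes (median 0.571; other pools -0.04), at 0.329 or more for osteogenic-like and at 0.371 or more for LMP-like droplets. Pools hold separate mice, and p-values measure the spread between pools. Intervals cover counting error only.

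Named genes were the 5 lineage genes, up to 4 members per gene group with the largest change past the threshold, and the 8 highest and 8 lowest changes among genes past it with at least 50 CPM on a side and the same sign in 9 of 10 pools. The members, the gene lists and the rules were chosen with earlier results of these data known. The effect of the alternatives is given in the closing section.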

Additional observations from a re-analysis of the deposited data

Results flagged for a closer look

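The change between gene-rich and comparison droplets differed between osteogenic-like and LMP-like droplets for 425 genes by a test of the difference itself, as described for *Col22a1*, *Kitl* and *Cxcl12*. Called doublets were 31.8% of gene-rich and 14.5% of comparison droplets in the osteogenic-like class and 14.7% and 7.27% in the LMP-like class. Without them, and with the minimum lowered to 10 droplets per pool and side, 173 genes passed in 10 pools, 134 of them among the 425. That fit changed the minimum and the set of pools as well, so the part of doublets alone in the 425 was not tested.

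Among the osteogenic-like droplets of 8 pools, 38 sets of pool values were searched for a pool far from the others, which chance alone marks in about 1 of 20 sets, and 6 held such a pool. *Tagln* stood at 352 CPM in gene-rich droplets of pool 5, with the next pool at 176. *Sost* stood at 178 CPM in gene-rich droplets of pool 6, with the next at 64.2. In comparison droplets, *Dynap* stood at 145 CPM in pool 18 with the next at 11.3, *Lpl* at 97.4 in pool 6 with the next at 48.3, AY036118 at 196 in pool 7 with the next at 91.3, and *Bglap3* at 837 in pool 5 with the next at 428. All 6 genes kept the direction of their change in 8 of 8 pools.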

How the results depend on the processing

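Because both sides of the limit come from the same pools, the pool was kept as a block, and without this pairing 1064 genes differed over all classes, 5 within the osteogenic-like and 19 within the LMP-like class. With every droplet thinned to 10000 UMIs the counts were 2769, 312 and 985, and against comparison droplets of 5600 to 6200 genes 3005 genes differed over all classes. That narrower window left 2 of 4 class shares past the test, where the LMP-like difference was 4.48 percentage points and the MALP-like difference -0.587. Among droplets with at least 80% of the vote, the MALP-like difference (-1.74) no longer passed and that of the mixed cluster (-1.45) did, and at a clustering resolution of 1.0 that of the other classes (-1.49) did. The other classes there also held clusters left unnamed for reasons other than mixing. Among these was a cluster led by *Gal*, with *Phex* among its leading genes and 44398 CPM of collagen genes. No cluster was left unnamed as mixed at that resolution, so the mixed share was 0 on both sides. Clusters with raised leukocyte counts beside collagen genes took the names LMP and osteogenic there. With 10% of the reference medians, the share with collagen and leukocyte genes together rose by 2.72 percentage points and passed, and with 40% the difference was -0.159. In the osteogenic-like class 246 genes differed without called doublets (3 pools), 1940 with library totals, 1616 with at least 10 droplets and 347 in the *Ifitm5* cluster alone. In the LMP-like class 530 differed without droplets with mitosis UMIs, 1795 without the cycling cluster, 41 in that cluster alone and 995 in the *Wisp2* cluster alone. Without called doublets and with at least 10 droplets per pool and side, 173 genes passed the test of the difference between both classes, 134 of them among the 425. DESeq2 called 5291, 714 and 2513 genes, and the other alternatives kept the counts within 1.5 times. Of the single genes named by the rule, 1794 gene and setting pairs kept direction and call, 541 lost the call, 2 gained it and 33 turned: 2900097C17Rik with library totals (0.016), osteogenic-like *Cxcl12* (-0.25), *Lpl* (-0.16) and *Tyrobp* (-0.22) without called doublets and *Cxcl12* (-0.030), *Ifi27l2a* (-0.32) and *Tyrobp* (-0.35) with at least 10 droplets as well, and *Cxcl12* (-0.28) in the *Ifitm5* cluster. LMP-like *Col11a2* (-0.053), *Col3a1* (0.10), *Col5a1* (0.078) and *Srsf7* (-0.086) turned in the cycling cluster alone, *H1fx* (-0.034), *Mepe* (0.34), *Srsf7* (-0.049) and *Tmpo* (-0.044) without mitosis UMIs, and *H1fx* (-0.080) and *Uhrf1* (-0.016) without the cycling cluster. In the *Wisp2* cluster *Col5a1* (0.21), *Creb3l1* (0.17), *Egln3* (0.016), *Mepe* (0.17), *P4ha2* (0.080), *Pgk1* (0.044), *Plod1* (0.050) and *Plod2* (0.019) stood above 0, and *H1fx* (-0.19), *Hells* (-0.058), *Mcm5* (-0.099), *Ndufa4* (-0.048), *Srsf7* (-0.041), *Tmpo* (-0.045) and *Uhrf1* (-0.12) below it. The causes were not tested. Fits on library totals, at least 10 droplets, cycling droplets, single clusters and the class difference without doublets were chosen after seeing the data. The MALP-like and macrophage-like classes had too few droplets to be fitted, and leaving out single pools other than pool 13 was not run.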

Other observations

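Markers of the less frequent cell types were at low levels on both sides of the limit, and are given as the range over 16 pools of their summed UMIs of 10000. The 8 osteoclast markers summed to 0.96 to 3.51 in gene-rich and 1.33 to 4.39 in comparison droplets, the 8 monocyte markers to 0.411 to 1.91 and 0.399 to 2.79, the 6 endothelial markers to 0.0928 to 0.965 and 0.0899 to 0.757, the 7 T cell markers to 0 to 0.328 and 0.0237 to 0.493, and the 5 megakaryocyte markers to 0.08 to 3.23 and 0.125 to 0.925. The 8 granulocyte markers reached 10.0 in a gene-rich and 7.54 in a comparison pool, and the 6 B cell markers 6.28 and 9.90. Basophil and mast cell markers reached 0.205 and 0.181, glial markers 0.0429 and 0.129, and erythroid markers 0.00478 and 0.00339.

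Over all classes *Xist* was lower in gene-rich droplets (138 against 162 CPM, -0.41 ± 0.12, edgeR's quasi-likelihood test, adjusted p = 0.00977), while none of the 4 Y-chromosome genes passed (median -0.01). DESeq2 did not call *Xist* over all classes (-0.40). Within the LMP-like class with the cycling cluster *Xist* was lower (-0.48 ± 0.15, adjusted p = 0.0256), and without that cluster it did not pass (-0.21 ± 0.14). Within osteogenic-like droplets *Xist* stood at -0.07 and did not pass, while 1 of the 4 Y-chromosome genes was lower (median -0.30), 2 without called doublets in 3 pools (median -0.82) and none without them in 10 pools (median -0.26). The interferon-stimulated gene *Ifi27l2a* was higher in gene-rich droplets of both the osteogenic-like (1.79 ± 0.46) and the LMP-like class without the cycling cluster (0.93 ± 0.25), and stood at -0.15 over all classes, where it did not pass. Its values in the osteogenic-like class were 5.61, 15.3 and 213 CPM in the lowest, median and highest gene-rich pool, and without called doublets, with at least 10 droplets per pool and side, it stood at -0.32.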
